A study of Mus musculus with 25 samples.

Results

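To examine how postnatal handling relates to the protein folding machinery of the adult hippocampus, the chaperone and heat shock genes were studied in area CA1, through which the hippocampus sends its output. The members were chosen by symbol. They are the genes that the Affymetrix Mouse 430_2.0 annotation names alone for a probe set and whose symbol begins with Hspa, Hspb, Hspd, Hspe, Hsph, Hsp90, Dnaja, Dnajb, Dnajc or Cct, followed by a digit or the letter a or b. The rule found 80 of 18193 genes, on 199 of 45037 probe sets. Each gene was followed through its leading probe set, the one with the highest mean log2 signal over the 25 arrays. The families are 13 Hspa, 9 Hspb, 1 Hspd, 1 Hspe, 1 Hsph, 2 Hsp90, 4 Dnaja, 13 Dnajb, 27 Dnajc and 9 Cct genes. Through its letters alone the rule also took in Hspbap1, whose protein associates with HSPB1, and Hspb11, a protein of intraflagellar transport. Hsp90ab1, the constitutive cytosolic HSP90, was not analysed here.

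The mice were females of the inbred strain Balb c/J and carried no engineered allele. As pups, 11 handled mice spent 15 min away from the dam each morning of postnatal days 1 to 14, and 14 non-handled mice had no such separation. All were tested for behavior at 8 weeks of age, and CA1 was dissected 2 weeks after that, so the arrays read adult tissue long after the handling ended. RNA was extracted with Qiagen RNA/DNA columns from 17 mice (7 handled, 10 non-handled) and with Trizol from 8 mice (4 handled, 4 non-handled), and each mouse had 1 array. The mice came from several litters, and which mouse came from which litter is unknown. Each p-value therefore takes the mice as independent. In whole tissue, fewer cells of a type and less RNA per cell cannot be told apart.

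Chaperones bind unfolded proteins and help them fold, refold or be degraded. HSP70 proteins (Hspa) bind and release their clients in an ATP cycle that J proteins (Dnaja, Dnajb, Dnajc) start and that HSP110 (Hsph1, and the related Hspa4 and Hspa4l) resets by nucleotide exchange. HSP90 finishes the folding of kinases and of steroid receptors, among them the glucocorticoid receptor that is studied in the hippocampus of handled animals. The chaperonins are closed chambers: CCT folds actin and tubulin in the cytosol, and HSP60 with HSP10 (Hspd1 and Hspe1) folds proteins in mitochondria. Small HSPs (Hspb) hold unfolded proteins without ATP. Heat shock factor induces Hspa1a, Hspa1b, Dnajb1, Hsph1 and Hspb1 when proteins unfold in the cytosol, and the unfolded protein response induces Hspa5, Hsp90b1 and Dnajb9 when they unfold in the endoplasmic reticulum.

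The sequences below are shown because the results return to these genes, and because they carry the letters through which the factors of both responses are known to bind. They are RefSeq promoter sequence of the build GRCm38.p6, written 5′ to 3′ on the strand of the gene. Promoters from 250 bases before to 50 bases after the annotated start were at hand for 66 of the 80 members and were searched on both strands. The endoplasmic reticulum stress element, searched as CCAAT and CCACG with any 9 bases between them, occurred in 3 of the 66 members (4.55%) and in 0.137% of 27025 genes. Capitals mark its matches, 1 in Hspa5, 2 in Hsp90b1 and 1 in Dnajc3.
Hspa5, chr2:34772000-34772068, plus strand: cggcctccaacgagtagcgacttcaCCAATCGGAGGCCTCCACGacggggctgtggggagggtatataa
Hsp90b1, chr10:86705508-86705681, minus strand: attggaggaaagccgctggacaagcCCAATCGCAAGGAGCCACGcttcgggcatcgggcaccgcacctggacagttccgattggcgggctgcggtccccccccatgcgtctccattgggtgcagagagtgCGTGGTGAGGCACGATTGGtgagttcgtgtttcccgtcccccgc
Dnajc3, chr14:118937802-118937870, plus strand: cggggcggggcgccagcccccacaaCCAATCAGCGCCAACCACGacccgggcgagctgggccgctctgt

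A heat shock element of 3 units, searched as GAA, TTC and GAA with any 2 bases between neighbours, occurred in 4 of the 66 members (6.06%), Hspd1, Hspe1, Dnajb6 and Hsph1, and in 0.662% of all genes. Hspd1 and Hspe1 are neighbours on chromosome 1 that are read in opposite directions, and the stretch between the 2 starts holds 2 overlapping matches, in capitals, that both genes share. A second start of Hspd1 is annotated on the far side of this stretch. The letters are a description of these windows and not a measured binding site.
Hspd1 and Hspe1, chr1:55087933-55088147, strand of Hspe1: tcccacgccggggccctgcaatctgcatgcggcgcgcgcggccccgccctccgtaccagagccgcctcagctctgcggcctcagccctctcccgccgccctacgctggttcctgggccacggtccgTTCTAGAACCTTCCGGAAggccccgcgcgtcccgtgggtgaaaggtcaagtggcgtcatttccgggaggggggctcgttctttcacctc

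The values are MAS 5.0 signals, a linear intensity per probe set, and the arrays were scaled only by 1 factor each. Changes are on the log2 scale, handled over non-handled or columns over Trizol, from a limma fit with handling and extraction as terms over all 45037 probe sets, and a gene is called at a Benjamini-Hochberg adjusted p under 0.05. Signals of different genes were not compared, because probe sets differ in how brightly they hybridize. Of the members, 60 lay in the upper 50% of all genes by mean signal, above 214.8, and 20 in the lower 50%. The CA1 markers Wfs1, Pou3f1 and Mpped1 read from 1374 to 19148 signal and Fibcd1 from 289.7 to 1698. The CA3 markers Grik4, Bok and Cpne4 reached 333, 728 and 986 signal. The dentate gyrus markers Prox1, Dsp, C1ql2 and Tdo2 stayed at or below 197.5. Among neuronal markers, Snap25, Syt1 and Camk2a read from 3760 to 31057 signal and Slc17a7 from 75.6 to 390.2. These ranges do not measure the purity of the dissection. The median signal of an array ran from 79.6 to 95.9 in handled and from 94.7 to 135 in non-handled column mice, and from 115.9 to 141.9 in handled and from 138.5 to 162.8 in non-handled Trizol mice. The array of the non-handled column mouse NH162 stood apart, with a log2 ratio of 3′ to 5′ Actb probe sets of 3.24 against 1.54 to 2.12 on the other arrays. Without it the counts of members called for handling and for extraction in all mice were the same.

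Postnatal handling went with changes in 12 of the 80 members, 15% of them, against 14.2% of all 18193 genes. The genes Hspa4, Cct8, Dnaja2, Cct6a, Hsp90b1 and Dnajb9 rose, and Dnajc8, Dnajc4, Dnajc24, Hspb3, Dnajc17 and Dnajb7 fell. The 6 rises are 7.5% of the members, against 4.47% of all genes, and the 6 falls are 7.5%, against 9.7%. As a share, the members called are thus close to the background of all genes. In a fit of the 22519 brightest probe sets alone, 8.23% of 11516 genes rose and 12.2% fell. All 6 members that rose lay among the 60 members with a mean signal above 214.8. Their share of 7.5% counts dim members too and comes from the fit of all probe sets. It therefore cannot be set against the 8.23% of bright genes. The median handling change of the members was log2 -0.003, against -0.12 over all genes and -0.02 over the bright genes. All 12 called genes had the same direction in column and in Trizol mice, with the larger size in column mice. They were chosen by the fit of all mice, which favours such agreement. Of all 80 members, 48 had the same direction under both methods. In all 80 genes the pooled handled and non-handled ranges overlapped (of all genes, 0% lay above and 0.126% below without overlap).

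**Figure D1:**
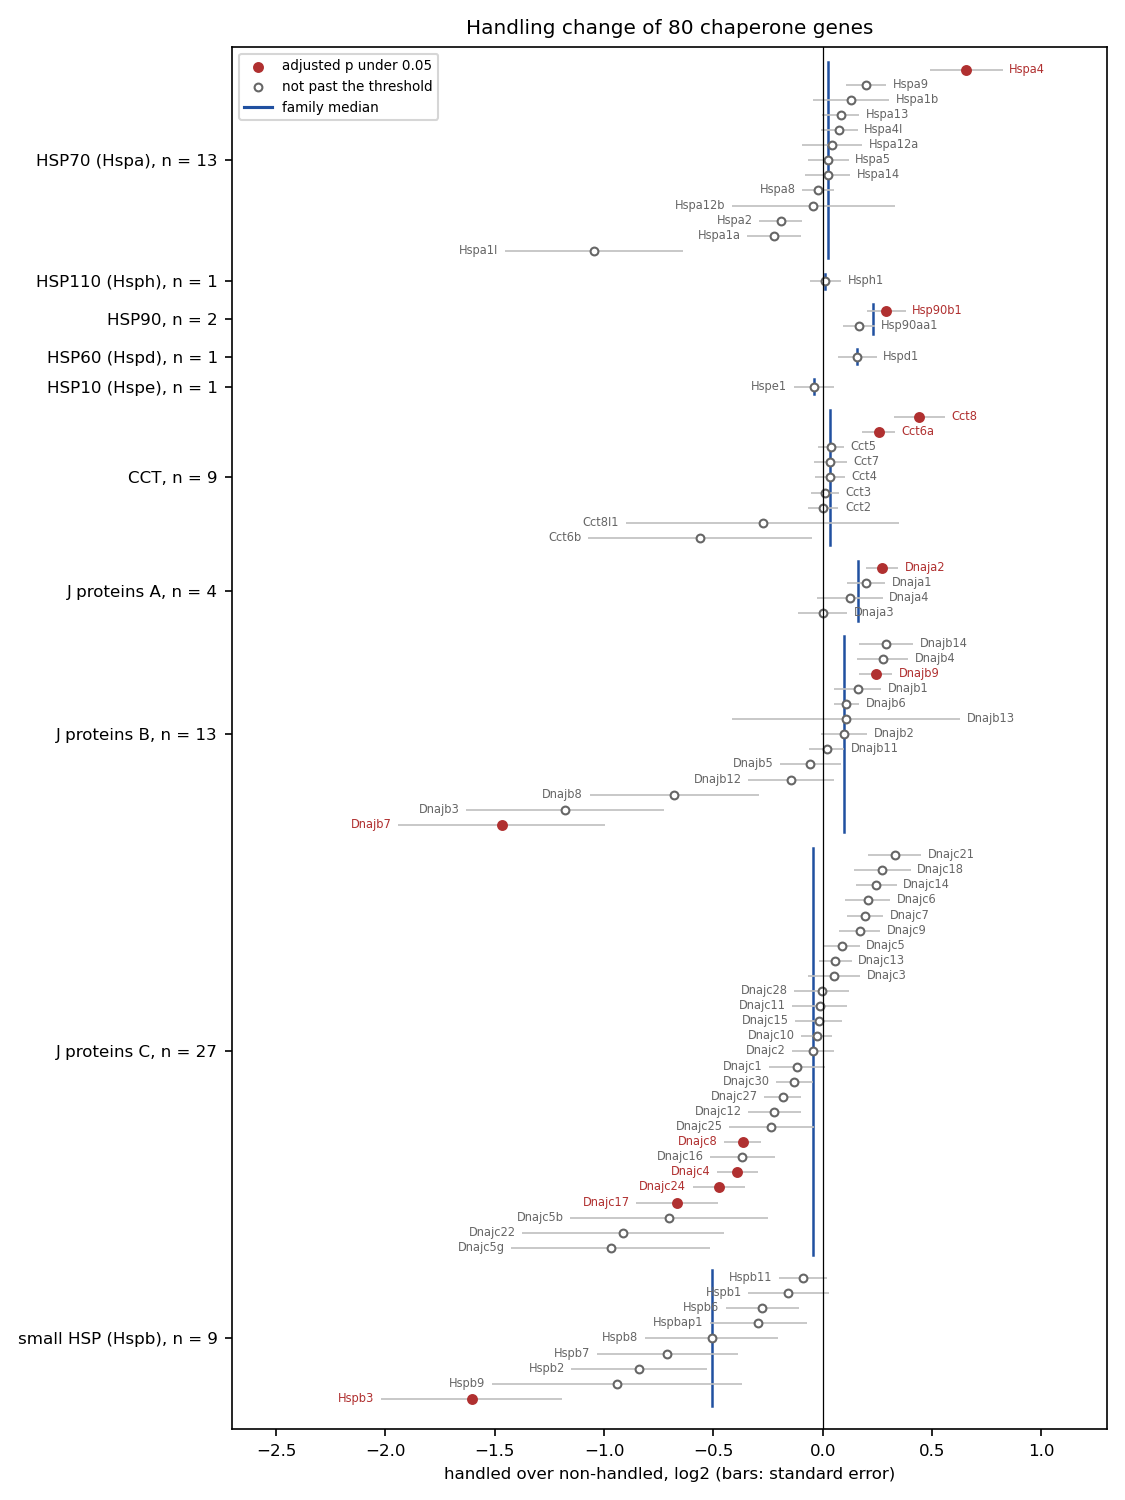
Handling change of each of the 80 chaperone genes, handled over non-handled on the log2 scale (horizontal axis, bars are standard errors), by family. Filled red points are the 12 genes with a limma adjusted p under 0.05, open points the others, and blue lines the family medians. All 9 Hspb genes lie below 0, and Hspb3 (-1.61) and Hspa4 (0.66) mark the ends of the called genes.

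Among the genes that rose, Hspa4 had the largest change. Hspa4 encodes APG-2, an HSP110-like nucleotide exchange factor for HSP70. It had 3051, 4829 and 8092 signal in handled mice (lowest, median and highest), against 1671, 3046 and 5817 in non-handled mice, a change of log2 0.66 ± 0.17 (SE, limma adjusted p = 0.00996, exact permutation p = 0.00242). The difference lay mainly in column mice, where the handled mouse H110 was highest and the non-handled mouse NH162 lowest, while in Trizol mice 1 non-handled mouse exceeded all handled ones. The changes within methods were 0.94 in column mice and 0.08 in Trizol mice. A second probe set of Hspa4 rose by 0.38 (limma adjusted p = 0.0109), and the other 2 gave 0.46 and 0.15 without a call.

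Dnaja2, a cytosolic J protein that works with HSC70, was the member with the smallest exact p. It had 9265, 10826 and 11504 signal in handled mice (lowest, median and highest), against 5908, 9085 and 10458 in non-handled mice, a change of log2 0.27 ± 0.07 (SE, limma adjusted p = 0.0157, exact permutation p = 3.75e-05). With a common mean and variance of the arrays the change of Dnaja2 was 0.06 and was not called (adjusted p = 0.716). In column mice every handled mouse lay above every non-handled one, from 10489 to 11504 signal against 5908 to 10458. Dnaja2 was the only member above without overlap in column mice, 1.25% of the members against 0.599% of all genes. By extraction method, Dnaja2 changed by 0.32 in column mice and 0.18 in Trizol mice. Its probe sets did not agree, and their mean changed by log2 -0.0033. Besides the leading one, which may detect related transcripts by its name, a probe set of Dnaja2 fell by 0.26 on the log2 scale (limma adjusted p = 0.0251) and another rose by 0.37 (limma adjusted p = 0.0267).

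The chaperonin CCT was represented by 9 genes, of which Cct8 and Cct6a rose with handling (22.2%, against 4.47% of all genes). The other 7 were not called. The family median was log2 0.03, and with a common mean and variance of the arrays it was -0.16 with 0 calls. Cct8 encodes the theta subunit of the ring. It had 3172, 4083 and 5067 signal in handled mice, against 1428, 3021 and 4829.8 in non-handled mice, a change of log2 0.44 ± 0.12 (SE, limma adjusted p = 0.0143, exact permutation p = 0.00147). Within methods it was 0.59 in column mice and 0.15 in Trizol mice. The low end of the non-handled range was again NH162, and without that mouse the change stayed called, with an adjusted p of at most 0.0365 when any 1 mouse was left out. The mean over all probe sets of Cct8 changed the other way, by log2 -0.17. Cct6a, the zeta subunit, had 11266, 16242 and 21042 signal in handled mice, against 9787, 14740.3 and 19119.7 in non-handled mice, a change of log2 0.26 ± 0.08 (SE, limma adjusted p = 0.0276, exact permutation p = 0.00134). Within methods the changes were 0.26 in column mice and 0.25 in Trizol mice, and with a common mean and variance of the arrays the change was -0.0021. Both probe sets of Cct6a rose, the second by 0.28 (limma adjusted p = 0.0381). The subunits Cct2, Cct3, Cct4, Cct5 and Cct7 had handling changes between log2 0.00 and 0.04, with standard errors of 0.06 to 0.08, and no limma adjusted p was below 0.712.

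Chaperones of the endoplasmic reticulum gave 2 calls among 9 listed members (22.2%, against 14.2% of all genes), both of them rises. Hsp90b1 encodes GRP94, the HSP90 of that compartment. It had 4659, 5149 and 5541 signal in handled mice, against 2806, 4124 and 5991 in non-handled mice, a change of log2 0.29 ± 0.09 (SE, limma adjusted p = 0.0309, exact permutation p = 0.00398). The handled mice spread little and lay within the range of the non-handled mice. Dnajb9 encodes ERdj4, a J protein of the lumen. It had 2812, 6199 and 8095 signal in handled mice, against 2519, 5187 and 6262 in non-handled mice, a change of log2 0.24 ± 0.08 (SE, limma adjusted p = 0.0361, exact permutation p = 0.0023). Within methods the changes of Hsp90b1 were 0.39 in column mice and 0.09 in Trizol mice, and those of Dnajb9 0.29 in column mice and 0.15 in Trizol mice. Hspa5 (BiP), the HSP70 of the same compartment, was not called on its leading probe set, and had 6066, 9753 and 11170.4 signal in handled mice, against 6445, 9154 and 11675 in non-handled mice, a change of log2 0.03 ± 0.09 (limma adjusted p = 0.892). The leading probe set of Hspa5 stood between its other 2, of which 1 rose by 0.41 (limma adjusted p = 0.0199) and 1 fell by 0.42 on the log2 scale (limma adjusted p = 0.0105). Of the genes whose promoters are printed above, Hsp90b1 was thus called and Hspa5 was not on the leading probe set, while Dnajc3 (P58IPK), an inhibitor of the kinase PERK, changed by log2 0.05 ± 0.12 (limma adjusted p = 0.822).

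The call of Hsp90b1 was lost when any 1 of 6 mice was left out (H109, H110, H116, H118, NH138 or NH165), that of Dnajb9 for 7 mice (H109, H110, H113, NH144, NH157, NH166 or NH170) and that of Cct6a for 4 (H108, H109, H110 or H123). The largest adjusted p was 0.0566 for Hsp90b1, 0.082 for Dnajb9 and 0.0524 for Cct6a. With all arrays brought to a common mean and variance 2 members rose, Hspa4 among them, beside 3.64% of all genes. The changes were then 0.15 for Hsp90b1 (adjusted p = 0.324) and 0.09 for Dnajb9 (adjusted p = 0.529). In the mean over its probe sets Hsp90b1 changed by 0.10 (adjusted p = 0.41).

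**Figure D2:**
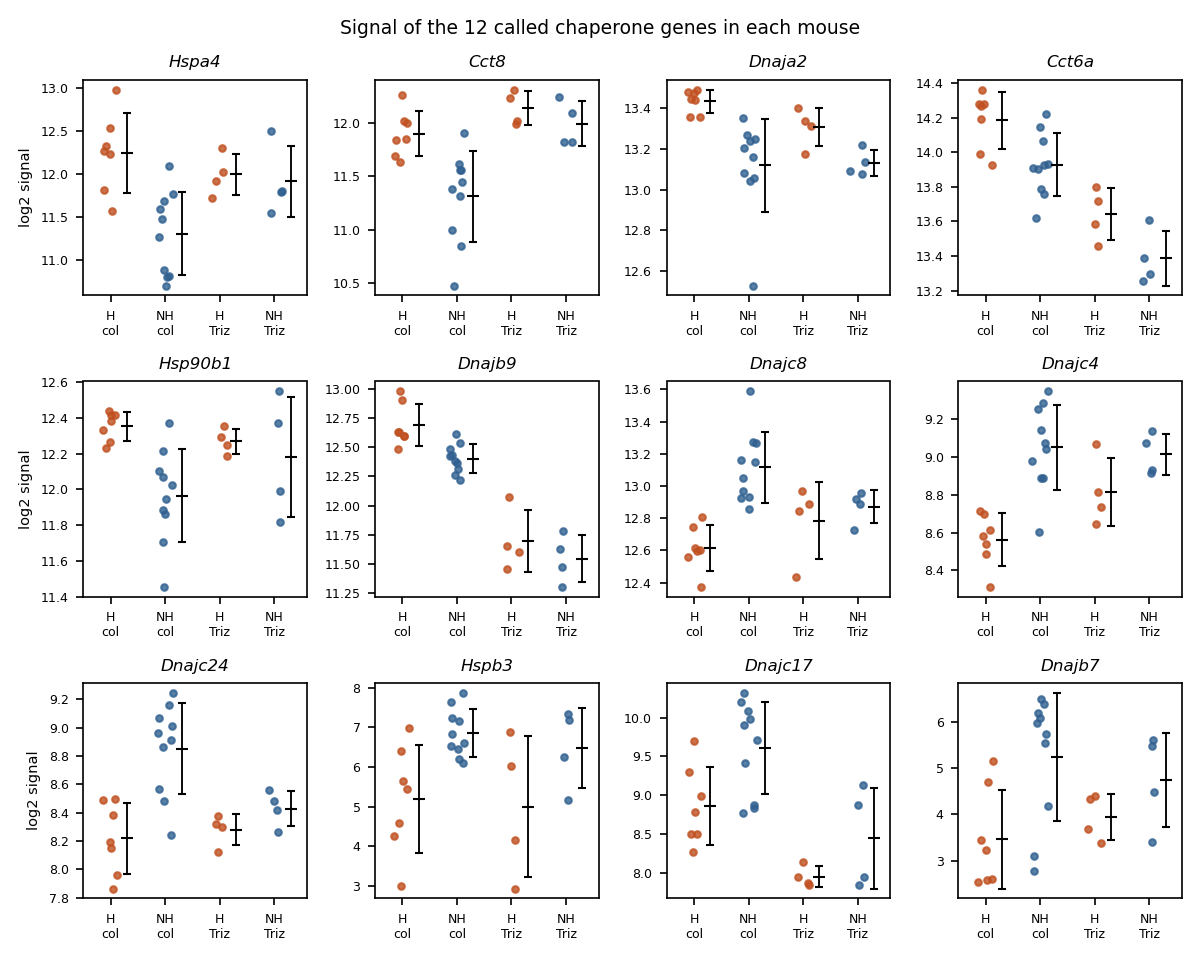
Log2 signal of the 12 chaperone genes called for handling, 1 point per mouse, in handled (H, orange) and non-handled (NH, blue) mice with RNA from columns (col) or Trizol (Triz). Black marks are the group mean with SD. Dnaja2 and Dnajc8 are the genes whose handled and non-handled column mice do not overlap.

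Of the 6 genes that fell, 4 were J proteins of class C, a family of 27 with 4 falls (14.8%, against 9.7% of all genes) and 0 rises. Dnajc8, which has been found with the spliceosome, had 5305, 6284 and 8026 signal in handled mice (lowest, median and highest), against 6767, 7992 and 12316 in non-handled mice, a change of log2 -0.37 ± 0.09 (SE, limma adjusted p = 0.00593, exact permutation p = 0.000178). In column mice all handled mice lay below all non-handled ones, 5305 to 7177 signal against 7430.2 to 12316. Dnajc8 was the only such member, 1.25% against 1.65% of all genes. In Trizol mice the ranges of Dnajc8 overlapped, and the changes within methods were -0.50 in column mice and -0.09 in Trizol mice. Its second probe set gave 0.11 on the log2 scale and was not called.

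Dnajc4, encoded on chromosome 19, had 318, 401 and 535 signal in handled mice, against 388, 532 and 649.6 in non-handled mice, a change of log2 -0.39 ± 0.09 (SE, limma adjusted p = 0.00702, exact permutation p = 6.61e-05). Dnajc24, known as DPH4 for its part in the diphthamide modification of elongation factor 2, had 233, 315 and 361 signal in handled mice, against 302, 420.1 and 607 in non-handled mice, a change of log2 -0.47 ± 0.12 (SE, limma adjusted p = 0.00985, exact permutation p = 0.000325). The ranges of both genes overlapped, and in each the handled median lay below the non-handled one and the lowest mouse was a handled mouse. Within methods the changes of Dnajc4 were -0.49 in column mice and -0.20 in Trizol mice, and those of Dnajc24 -0.63 in column mice and -0.15 in Trizol mice. Dnajc17 had 229, 361 and 827 signal in handled mice, against 229, 619.5 and 1277 in non-handled mice, a change of log2 -0.66 ± 0.19 (SE, limma adjusted p = 0.0197, exact permutation p = 0.00583). By extraction method, Dnajc17 changed by -0.75 in column mice and -0.50 in Trizol mice. The handled Trizol mice were low and close together, at 248, 229, 281 and 233 signal. The calls of Dnajc8, Dnajc4, Dnajc24 and Dnajc17 held when any 1 mouse was left out. Dnajc17 was no longer called with a common mean and variance of the arrays (adjusted p = 0.062), nor was Dnajc24 (adjusted p = 0.0646), and with RNA quality covariates the call of Dnajc17 was lost too (-0.54, adjusted p = 0.073). In the mean over probe sets the call was lost for Dnajc8 (-0.13, adjusted p = 0.273), Dnajc17 (-0.31, adjusted p = 0.377) and Dnajc24 (-0.48, adjusted p = 0.249). By its name, the leading probe set of Dnajc24 may detect related transcripts. The probe set of unique name gave log2 -0.48 for Dnajc24 and was not called (limma adjusted p = 0.592).

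The Hspb genes, 7 small HSPs with Hspbap1 and Hspb11, had a median of log2 -0.51, the lowest of the families. All 9 of their fitted changes were negative, yet only Hspb3 was called (11.1%, against 14.2% of all genes). After quantile normalization all 9 were still negative, with a median of -0.24 and no call. With a common mean and variance of the arrays 8 of 9 were, with a median of -0.21 and 1 call. Within methods 8 of 9 were negative in column mice and 6 of 9 in Trizol mice. Hspb3 is known from muscle and motor neurons. It had 7.67, 43.6 and 127 signal in handled mice (lowest, median and highest), against 35.8, 106 and 234 in non-handled mice, a change of log2 -1.61 ± 0.42 (SE, limma adjusted p = 0.0117, exact permutation p = 0.00147). The lowest signals, at 7.67 and 8.02, were both in handled mice, and the highest handled mouse, H123, lay above most non-handled mice. Within methods the changes were -1.67 in column mice and -1.48 in Trizol mice. The call was lost after quantile normalization (log2 -1.29, adjusted p = 0.0567) and with RNA quality covariates (-1.38, adjusted p = 0.0506). Dnajb7, a J protein known from testis, had 5.79, 11 and 35.7 signal in handled mice, against 6.86, 48.1 and 90.8 in non-handled mice, a change of log2 -1.47 ± 0.47 (SE, limma adjusted p = 0.0396, exact permutation p = 0.00553). By extraction method, Dnajb7 changed by -1.79 in column mice and -0.80 in Trizol mice. That call was lost on leaving out any 1 of 15 mice, with an adjusted p of up to 0.0742, and after quantile normalization (-1.02, adjusted p = 0.199).

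These 2 genes were dim, and so were 7 of the 9 Hspb genes. The 20 members in the lower 50% of mean signal had a median handling change of log2 -0.69, against -0.39 for all genes there, and the 60 in the upper 50% had 0.04, against 0.01. After quantile normalization the medians of the lower 50% were -0.35 for the members and -0.06 for all genes. In column mice alone, 4 of the 9 Hspb genes were called lower, beside 9.31% of all genes. Beside Hspb3 they were Hspb2 (log2 -1.15, limma adjusted p = 0.0485), Hspb7 (-1.01, adjusted p = 0.0498) and Hspbap1 (-0.72, adjusted p = 0.0157). Hspb1 (HSP27), the best known member of the family, had 121, 216 and 424 signal in handled mice, against 146.2, 231 and 490.3 in non-handled mice, and its change of log2 -0.16 ± 0.18 (limma adjusted p = 0.614) was not called. As given above, the median signal of the arrays also ran lower in handled than in non-handled column mice.

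Other dim members had wide spreads and no call. Hspa1l, a testis-enriched HSP70, had 2.88, 8.28 and 27.7 signal in handled mice, against 6.81, 15.3 and 72.7 in non-handled mice, a change of log2 -1.05 ± 0.41 (limma adjusted p = 0.0878). Dnajc5g, a testis relative of the cysteine string protein, had 8.83, 32.1 and 84 signal in handled mice, against 11.5, 59.9 and 161.5 in non-handled mice, a change of log2 -0.97 ± 0.45 (limma adjusted p = 0.158). Cct6b, the testis form of the zeta subunit, had 3.44, 18.1 and 56.4 signal in handled mice, against 5.03, 26.8 and 66.7 in non-handled mice, a change of log2 -0.56 ± 0.51 (limma adjusted p = 0.502). Each had the largest handling change of its family in size, called genes included, and the handled and non-handled ranges of all 3 overlapped widely.

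The 13 measured targets of heat shock factor held 1 call (7.69%, against 14.2% of all genes), the rise of Hspa4, and a median of log2 0.08. Hspa1a, Hspa1b, Dnajb1 and Hsph1 were not called for handling. Hspa1a, an inducible HSP70, had 207, 419 and 532 signal in handled mice (lowest, median and highest), against 337, 448 and 650.5 in non-handled mice, and its change was log2 -0.22 ± 0.12 (limma adjusted p = 0.239). In Trizol mice it did not overlap, at 280.3, 207, 211 and 310.4 signal in handled mice, against 466.4, 386, 403 and 408 in non-handled mice. In column mice the medians were close, 482 in handled and 484 in non-handled mice. Hspa1a had the smallest unadjusted p of all members for the difference between both handling effects (log2 0.77 ± 0.23, SE, limma adjusted p = 0.383), which did not pass the threshold. With Dnajc27, Hspa12b and Hspb9, Hspa1a was 1 of 4 members lower without overlap in Trizol mice, 5% of the members against 3.5% of all genes, and no member was higher without overlap there, against 0.83% of all genes.

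Hspa1b, the near-identical neighbour of Hspa1a, had 425, 916 and 1198 signal in handled mice, against 244, 792 and 1483 in non-handled mice, a change of log2 0.13 ± 0.17 (limma adjusted p = 0.669). The coding sequences of Hspa1a and Hspa1b are so alike that their probe sets may read both transcripts. Dnajb1 (HSP40), the J protein induced with them, had 3846, 8855 and 12463 signal in handled mice, against 4514, 7214 and 11035 in non-handled mice, a change of log2 0.16 ± 0.11 (limma adjusted p = 0.343). Hsph1 (HSP105), a nucleotide exchange factor, had 10617, 12129.9 and 14074 signal in handled mice, against 10222, 11826 and 14452 in non-handled mice, a change of log2 0.01 ± 0.07 (limma adjusted p = 0.932). Handled and non-handled mice of these 3 genes overlapped under both extraction methods.

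**Figure D3:**
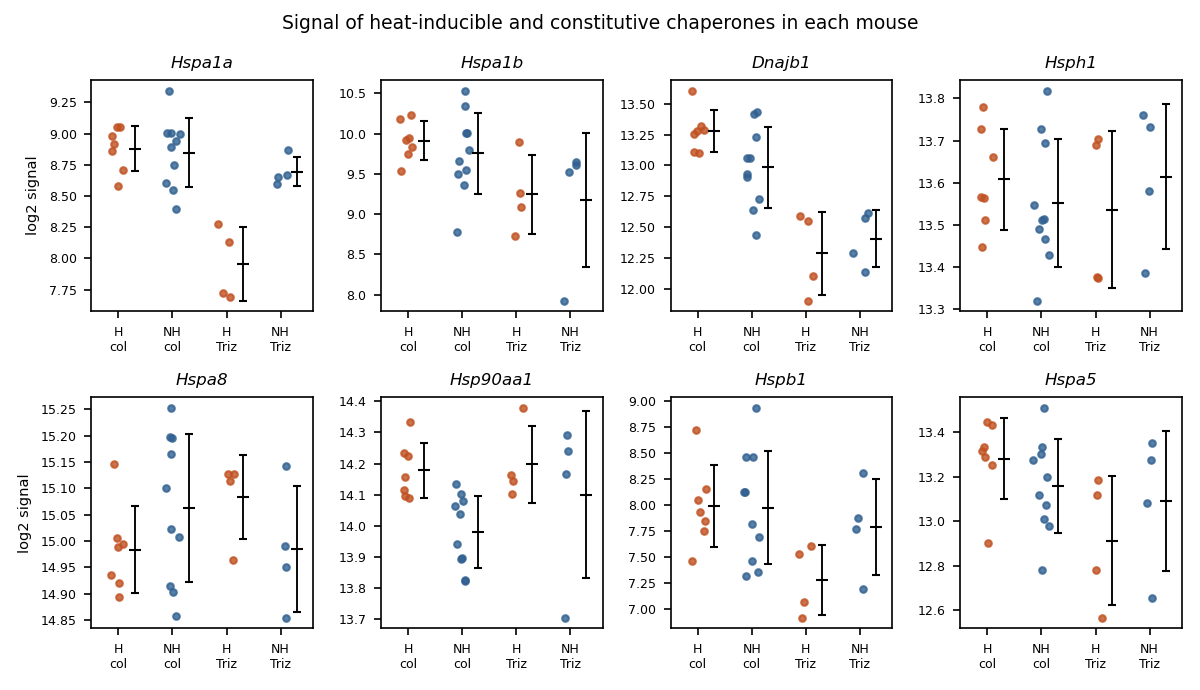
Log2 signal of 8 heat-inducible and constitutive chaperones, 1 point per mouse, in handled (H, orange) and non-handled (NH, blue) mice with RNA from columns (col) or Trizol (Triz). Black marks are the group mean with SD. Hspa1a is separated by handling in Trizol mice only, and NH144 is low for Hspa1b.

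The constitutive chaperones of the cytosol were not called either. Hspa8 (HSC70), the abundant HSP70 that strips clathrin from vesicles, had 30427, 32628 and 36247 signal in handled mice, against 29623, 33138 and 39057 in non-handled mice, a change of log2 -0.02 ± 0.07 (limma adjusted p = 0.883). Its leading probe set may read related transcripts, as its name marks it as not unique. Hsp90aa1, the inducible cytosolic HSP90, had 17437, 18249 and 21312 signal in handled mice, against 13351, 16959.8 and 20045 in non-handled mice, a change of log2 0.16 ± 0.07 (limma adjusted p = 0.129). The highest mouse was a handled and the lowest a non-handled Trizol mouse, and the ranges overlapped. Dnaja1, a J protein of the cytosol, had 18203, 20785 and 24908 signal in handled mice, against 10945, 18287 and 22518 in non-handled mice, a change of log2 0.20 ± 0.09 (limma adjusted p = 0.127). Neither Hsp90aa1 nor Dnaja1 passed the threshold, although their exact permutation p was 0.00715 and 0.0138 before any adjustment.

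In mitochondria, Hspa9 (mortalin), the HSP70 of the import motor, had 3246, 3839 and 4283 signal in handled mice, against 2298, 3267 and 4489.9 in non-handled mice, a change of log2 0.20 ± 0.09 (limma adjusted p = 0.149). Hspd1 (HSP60) had 2796, 4489 and 5526 signal in handled mice, against 2469.5, 3826 and 5252 in non-handled mice, a change of log2 0.16 ± 0.09 (limma adjusted p = 0.248). In column mice alone Hspd1 was called higher, by log2 0.28 (limma adjusted p = 0.0468), while in Trizol mice the change was -0.09. Hspe1 (HSP10), the lid of the same chamber, had 1768, 3141 and 4084 signal in handled mice, against 1463, 3319.5 and 5574 in non-handled mice, a change of log2 -0.04 ± 0.09 (limma adjusted p = 0.81). At the synapse, Dnajc5 (cysteine string protein), a guardian of vesicle proteins, had 5070.5, 6449 and 7163 signal in handled mice, against 4377, 5809 and 7774 in non-handled mice, a change of log2 0.09 ± 0.08 (limma adjusted p = 0.525). Dnajc6 (auxilin), which recruits HSC70 to clathrin coats, had 6973, 10265 and 11784 signal in handled mice, against 4984, 8855 and 12739 in non-handled mice, a change of log2 0.21 ± 0.10 (limma adjusted p = 0.188). The role lists for mitochondria (6 measured) and for clathrin uncoating (3 measured) held 0 members called for handling, against 14.2% of all genes.

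Column mice alone gave 8 rises and 8 falls among the members, 10% each, against 5.5% and 9.31% of all genes. Of the 12 genes called in all mice, Cct6a and Dnajb7 were not called there, and Dnajc21, Dnajc14, Hspd1, Hspb2, Hspb7 and Hspbap1 were called in addition. Trizol mice alone gave 0 calls among the members and 0 among all genes, with 5 members (6.25%) at an unadjusted p under 0.05, against 6.56% of all genes. The limma test of the difference between both handling effects called 0 of 80 members and 0.077% of all genes, and 7 members (8.75%) had an unadjusted p under 0.05, against 7.87% of all genes. Over the 199 probe sets, 17 rose (8.54%, against 3.58% of all probe sets) and 14 fell (7.04%, against 7.93%), and Dnaja2, Dnajc6 and Hspa5 had probe sets called both ways.

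Of the 72 other genes of the folding machinery that were listed, 67 were measured, and 4 rose and 5 fell with handling. The 9 called are 13.4% of them, against 14.2% of all genes. St13 (HIP), which stabilizes HSP70 on its clients, had 6219.9, 7026 and 8117 signal in handled mice, against 5453, 5974 and 6898 in non-handled mice (log2 0.25 ± 0.06, SE, limma adjusted p = 0.00592). Tomm70a, the mitochondrial import receptor to which HSP70 and HSP90 deliver preproteins, had 6536, 9046 and 10172 signal in handled mice, against 5613, 6856 and 8459 in non-handled mice (log2 0.38 ± 0.08, SE, limma adjusted p = 0.00177). Lonp1, the protease of the mitochondrial matrix, had 1078, 1937 and 2195 signal in handled mice, against 896, 1367 and 1967 in non-handled mice (log2 0.39 ± 0.11, SE, limma adjusted p = 0.022). The fourth rise was that of Vbp1, a prefoldin subunit that passes actin and tubulin to CCT. Handled and non-handled mice overlapped in each of the 3 genes described. In the mean over probe sets St13 (0.13, adjusted p = 0.605) and Tomm70a (0.09, adjusted p = 0.657) were not called, nor were they with a common mean and variance of the arrays (0.08, adjusted p = 0.506, and 0.19, adjusted p = 0.14). Lonp1 changed by 0.58 in column mice and 0.01 in Trizol mice, and its call was lost with RNA quality covariates (0.28, adjusted p = 0.0719), without a trend in the prior (adjusted p = 0.0534) and with a common mean and variance (adjusted p = 0.0532).

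The genes of the same list that fell included 2 of the unfolded protein response. Atf4, the transcription factor translated when PERK is active, had 1070.2, 1334 and 1733 signal in handled mice, against 1373, 1912 and 2488 in non-handled mice (log2 -0.51 ± 0.10, SE, limma adjusted p = 0.000826). Ern1 (IRE1), the sensor that splices Xbp1, had 451, 535 and 647 signal in handled mice, against 470.4, 690.5 and 899 in non-handled mice (log2 -0.34 ± 0.10, SE, limma adjusted p = 0.0269). Tor1a (torsin), an ATPase of the endoplasmic reticulum, had 296, 419.9 and 509 signal in handled mice, against 324, 581 and 863 in non-handled mice (log2 -0.47 ± 0.11, SE, limma adjusted p = 0.00764). The call of Ern1 was lost when any 1 of 3 mice was left out (H108, H109 or H117), in column mice alone (adjusted p = 0.091), in the mean over probe sets (adjusted p = 0.0627) and with a common mean and variance (adjusted p = 0.0944). The other falls were those of Clpp and Phb2 in mitochondria. Of the 20 genes listed for folding in the endoplasmic reticulum and for the unfolded protein response, 0 rose (against 4.47% of all genes) and 2 fell (10%, against 9.7%).

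Markers of other cell types moved with handling as well. Both interneuron markers rose, Gad1 by log2 0.30 and Gad2 by 0.86, and their summed signal ran from 10456 to 15024 in handled and from 6198 to 11683 in non-handled column mice, and from 9361 to 15950.3 in handled and from 7587 to 10677 in non-handled Trizol mice. One call each came from 4 astrocyte markers (Aqp4, 0.32), 4 neuronal markers (Camk2a, -0.24), 3 endothelial markers (Cldn5, -0.49) and 4 markers of choroid plexus and ependyma (Folr1, -0.86). No marker of CA1 pyramidal cells, oligodendrocytes or microglia was called. The part of these cell types in the changes of the members was not tested.

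Between the extraction methods 36 members differed, 45% of them, against 41.2% of all genes. Of the 80 genes, 26 were higher with columns than with Trizol (32.5%, against 23.7% of all genes) and 10 were lower (12.5%, against 17.5%). In a fit of the 22519 brightest probe sets alone, 37.6% of 11516 genes were higher with columns and 23.6% lower. All 26 members that were higher lay among the 60 members with a mean signal above 214.8. Their share of 32.5% counts dim members too and comes from the fit of all probe sets. It therefore cannot be set against the 37.6% of bright genes. The median change was log2 0.14 in the members, against -0.02 over all genes and 0.11 over the bright genes. The size of this median depends on scaling, since it was 0.23 after quantile normalization and 0.31 with a common mean and variance, where all genes had 0.26 in both cases. In 10 genes the column mice lay wholly above the Trizol mice (12.5%, against 5.18% of all genes), and in Dnajc13 alone wholly below (1.25%, against 4.75%).

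**Figure D4:**
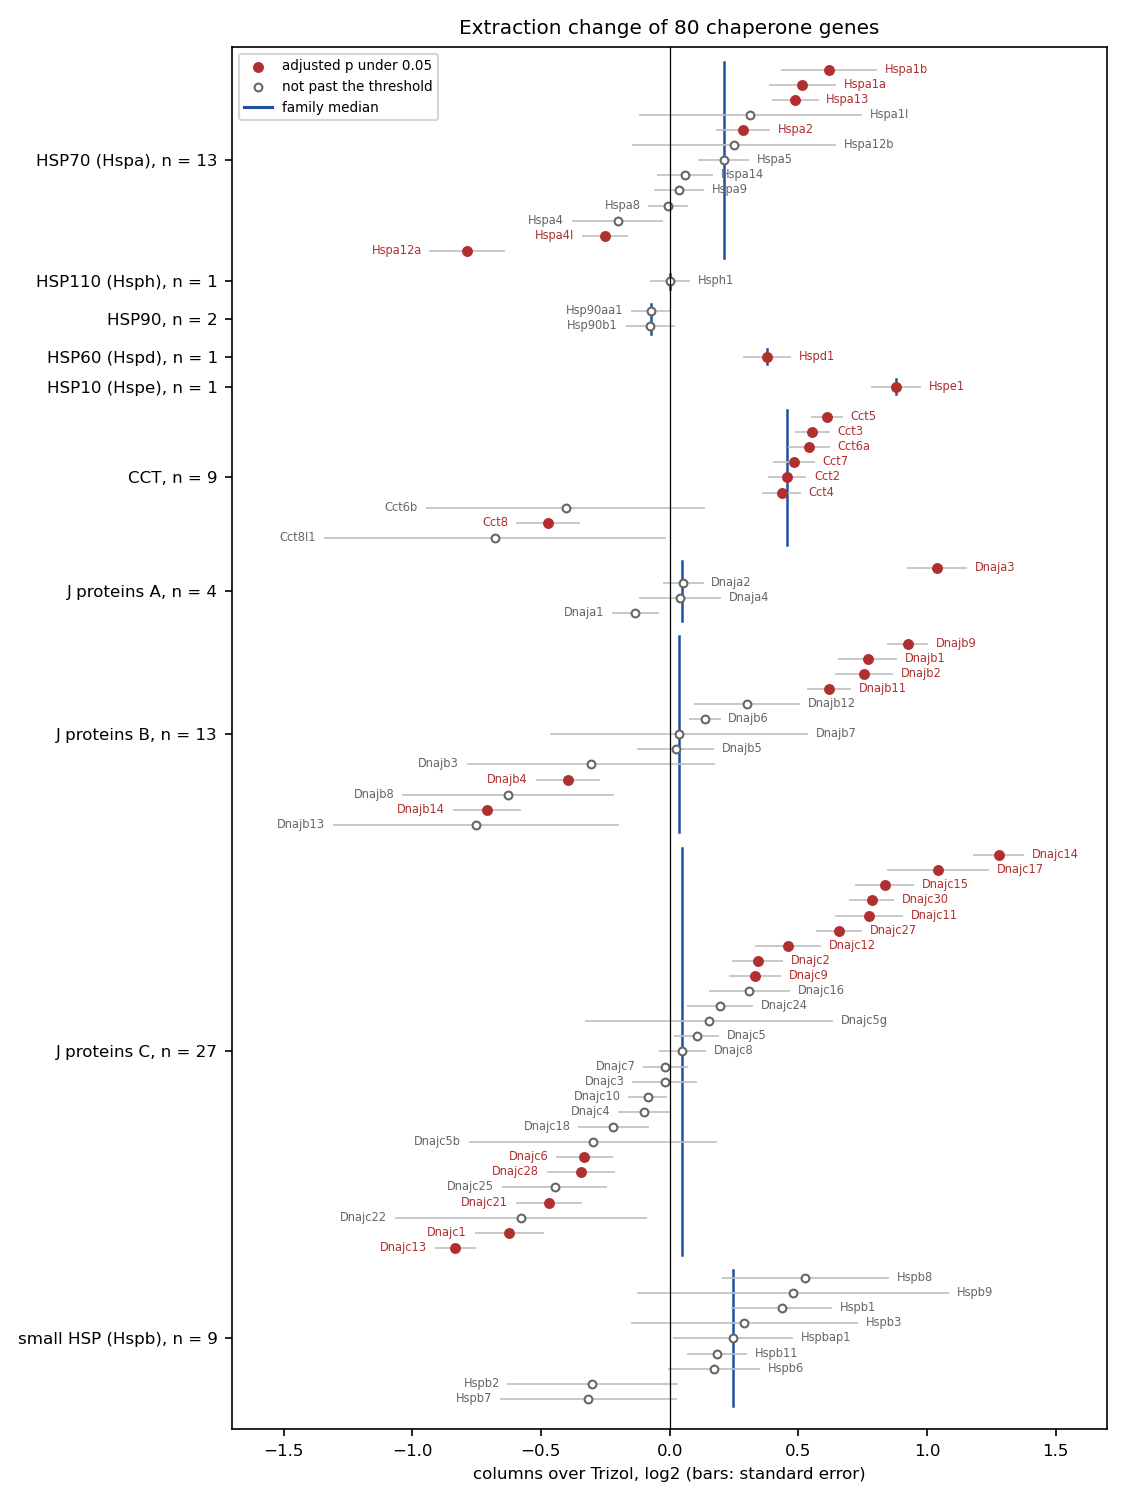
Change between extraction methods of each of the 80 chaperone genes, columns over Trizol on the log2 scale (horizontal axis, bars are standard errors), by family. Filled red points are genes with a limma adjusted p under 0.05, open points the others, and blue lines the family medians. Of the 9 CCT genes 6 are higher with columns (66.7%, against 23.7% of all genes), and Cct8 is lower.

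In the chaperonin CCT 7 of 9 genes were called (77.8%, against 41.2% of all genes). Cct2, Cct3, Cct4, Cct5, Cct6a and Cct7 were higher with columns by log2 0.44 to 0.61 (66.7%, against 23.7% of all genes). Cct8 was lower (11.1%, against 17.5%). Cct5, the epsilon subunit, had 8653, 9888 and 10761 signal with columns (lowest, median and highest), against 5852, 6306 and 6788 with Trizol, a change of log2 0.61 ± 0.06 (SE, limma adjusted p = 6.25e-10) with no overlap. Cct3, the gamma subunit, had 11138, 12122 and 14889 signal with columns, against 6797, 8423 and 9256 with Trizol, a change of log2 0.55 ± 0.07 (SE, limma adjusted p = 2.95e-08), again with no overlap. The 7 probe sets of Cct3 did not agree. Of the members, 2 (Cct3 and Dnajc3) had probe sets called both higher and lower with columns. Cct8 had 1428, 3129 and 4889 signal with columns, against 3603, 4249.9 and 5067 with Trizol, a change of log2 -0.47 ± 0.13 (SE, limma adjusted p = 0.00245), with ranges that overlapped. In the mean over its probe sets Cct8 changed by -0.42 and was not called (limma adjusted p = 0.435). After quantile normalization and with a common mean and variance the counts were again 6 higher and 1 lower. Of all genes, 31.6% were higher and 14% lower after quantile normalization, and 32.2% and 12.4% with a common mean and variance. Tcp1, the alpha subunit, whose symbol the rule did not match, changed by log2 0.41 (limma adjusted p = 4.22e-06).

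Members of mitochondria were also higher with columns, 5 of the 6 measured, with a median of log2 0.80. These are 83.3% of the list, against 23.7% of all genes and 37.6% in the fit of bright genes. Hspe1 had 2770.1, 3525 and 5574 signal with columns, against 1463, 2073 and 2285 with Trizol, a change of log2 0.88 ± 0.10 (SE, limma adjusted p = 3.31e-09), and no overlap. Its partner Hspd1 had 3089.7, 4396 and 5526 signal with columns, against 2469.5, 3349 and 4226 with Trizol and a change of log2 0.38 ± 0.09 (SE, limma adjusted p = 0.00133), with overlap. With RNA quality covariates the change of Hspd1 was 0.23 and was not called (adjusted p = 0.327). Dnaja3 (TID1), the J protein of mortalin, had 1591, 1966 and 2562 signal with columns, against 628, 967 and 1519 with Trizol, a change of log2 1.04 ± 0.12 (SE, limma adjusted p = 6.19e-09), and no overlap. Hspa9 itself changed by log2 0.04 ± 0.10 (SE, limma adjusted p = 0.81), the only one of the 6 that was not called.

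The largest rise with columns was that of Dnajc14, a J protein of the endoplasmic reticulum membrane, which had 799, 1064 and 1454 signal with columns, against 367, 463 and 533 with Trizol, a change of log2 1.28 ± 0.10 (SE, limma adjusted p = 1.31e-12), with no overlap. Dnajb9 had 4762, 5755 and 8095 signal with columns, against 2519, 3127 and 4298 with Trizol, a change of log2 0.92 ± 0.08 (SE, limma adjusted p = 2.16e-11), and no overlap. Dnajc17 had 309, 630.1 and 1277 signal with columns, against 229, 247 and 561 with Trizol, a change of log2 1.04 ± 0.20 (SE, limma adjusted p = 4.98e-05), with overlap. All 3 probe sets of Dnajc14 were called in the same direction. The heat-inducible genes Dnajb1, Hspa1b and Hspa1a were higher with columns as well, by log2 0.77 ± 0.11, 0.62 ± 0.19 and 0.52 ± 0.13 (SE), all with overlap. With RNA quality covariates the calls of Hspa1b (0.29, adjusted p = 0.606) and Hspa1a (0.38, adjusted p = 0.232) were lost. Hspa8, Hsph1, Hsp90aa1 and Hsp90b1 had extraction changes between log2 -0.08 and 0.00 and were not called. After quantile normalization Hspa8 (-0.22), Hsph1 (-0.26), Hsp90aa1 (-0.35) and Hsp90b1 (-0.25) were called lower with columns. Of the Hspb genes, none was called between the methods, against 41.2% of all genes. After quantile normalization 5 of 9 were called higher with columns, beside 31.6% of all genes.

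Among genes lower with columns, Dnajc13 (RME-8), a J protein of endosomes, had 595, 832 and 924 signal with columns, against 1279.6, 1455 and 1599 with Trizol, a change of log2 -0.83 ± 0.08 (SE, limma adjusted p = 1.32e-10), and no overlap. Hspa12a, a distant relative of HSP70, had 398, 635 and 1075 signal with columns, against 624, 1188 and 1437 with Trizol, a change of log2 -0.79 ± 0.15 (SE, limma adjusted p = 3.34e-05). Dnajb14, a J protein of the endoplasmic reticulum, had 1029.7, 2012 and 2835 signal with columns, against 2675, 3169 and 3603 with Trizol, a change of log2 -0.71 ± 0.13 (SE, limma adjusted p = 3.48e-05). Both overlapped between methods, as did Dnajc1, the member with the next fall, log2 -0.62 ± 0.14 (SE, limma adjusted p = 0.000275). The fall of Hspa12a was not seen in its brightest probe set of unique name, which changed by log2 0.01.

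Cell type markers and RNA quality moved with extraction. Called higher with columns were 3 of 3 microglia markers, 4 of 4 astrocyte markers, 4 of 4 measured oligodendrocyte markers and 4 of 4 measured CA1 markers. So were 2 of 4 neuronal, 1 of 3 endothelial and 1 of 3 CA3 markers. Of the 2 interneuron markers and the 4 markers of choroid plexus and ependyma, 0 were called. Cpne4, a CA3 marker, and Prox1, 1 of 4 dentate gyrus markers, were called lower. The summed signal of the microglia markers ran from 13877 to 21881 in handled and from 15126 to 25159.8 in non-handled column mice, against 6194 to 7336 in handled and 5832 to 9676 in non-handled Trizol mice. The log2 ratio of 3′ to 5′ Gapdh probe sets ran from 1.15 to 1.52 in handled and from 1.04 to 1.71 in non-handled column mice, against 1.58 to 1.95 in handled and 1.49 to 1.76 in non-handled Trizol mice. With both 3′ to 5′ ratios as covariates 18 members were higher and 5 lower, beside 15.8% and 10.8% of all genes. Without the covariates 23.7% of all genes were higher and 17.5% lower. Of the 67 measured other genes of the folding machinery, 39 were higher (58.2%, against 23.7% of all genes) and 6 lower (8.96%, against 17.5%) with columns. The part of cell makeup in these differences was not tested.

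To ask whether partners vary together from mouse to mouse, 6 pairs were correlated within each extraction method after the group means were removed, 12 relations in all. Hspd1 and Hspe1, which share the printed stretch between their starts, ran against each other in 17 column mice (Pearson's r = -0.71, permutation p = 0.00537, adjusted p = 0.0322, with Spearman's rho = -0.53, permutation p = 0.036, adjusted p = 0.144). The relation rested on few mice. Without NH142 and NH162, the mice farthest from the median of Hspd1, r was -0.31, and without NH162 alone it was -0.55 (permutation p = 0.038, adjusted p = 0.228). In 8 Trizol mice the pair had r = 0.73 (exact permutation p = 0.127, adjusted p = 0.322, with rho = 0.57, exact permutation p = 0.158, adjusted p = 0.271), which came to 0.02 without NH138 and NH147.

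**Figure D5:**
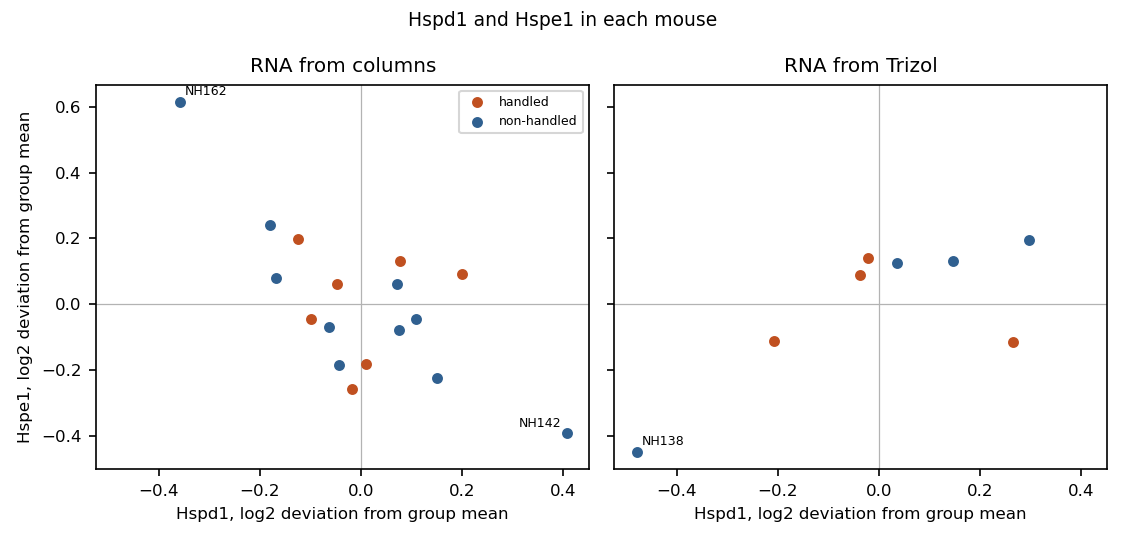
Deviation of Hspd1 (horizontal axis) and Hspe1 (vertical axis) from the mean of the own handling and extraction group, in log2 units, 1 point per mouse, for RNA from columns (left) and Trizol (right), handled mice in orange and non-handled mice in blue. NH162 is the point with the highest Hspe1 among column mice, and NH138 the lowest for both genes among Trizol mice.

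Hspa1b and Dnajb1, both targets of heat shock factor, varied together in Trizol mice (r = 0.76, exact permutation p = 0.00174, adjusted p = 0.0208, with rho = 0.83, exact permutation p = 0.00694, adjusted p = 0.0833), with r = 0.57 without NH144 and H130. In column mice the pair had r = 0.44 (permutation p = 0.134, adjusted p = 0.322) and rho = 0.62 (permutation p = 0.0172, adjusted p = 0.103). The other 4 pairs, Hspa5 with Hsp90b1, Hspa5 with Dnajb11, Hsp90aa1 with Hsph1 and Cct2 with Cct5, had r between -0.56 and 0.54 and no adjusted p below 0.271 under either method. NH162 was the lowest column mouse for Hspd1 and the highest for Hspe1, with 3089.7 and 5574 signal.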

How the data were processed

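Total RNA of CA1 from 25 mice was amplified in 2 rounds, and every mouse had its own Mouse 430_2.0 array from Affymetrix. The authors deposited MAS 5.0 intensity values, 1 linear signal per probe set, made with Affymetrix Expression Console 1.1 according to the submitters' processing notes. Each array had been scaled by 1 factor, with no normalization of the distributions, and the number of arrays limits the precision. Extraction was read from the labels, which name columns for the mice listed 1 to 17 and Trizol for the rest.

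From 45101 probe sets, 64 controls were left out. The platform annotation names 1 gene for 34945 probe sets, several for 932 and none for 9160. Signals were taken to log2 and fitted with limma 3.58.1 in R 4.3.3 (lmFit, eBayes with trend) on handling and extraction, and p-values were adjusted over all 45037 probe sets by Benjamini-Hochberg. A second fit added the interaction. Single genes were also tested by exact permutation of handling within extraction, two-sided. Correlations used 100000 draws in column mice and all permutations in Trizol mice, two-sided. Tables, permutations and figures used Python 3.11.15, numpy 2.4.6, pandas 2.3.3, scipy 1.17.1 and matplotlib 3.10.9. The fit was tested on simulated data for the handling comparison over 45037 probe sets. It recovered 41% of 100 probe sets shifted by log2 0.5 and 82% of 100 shifted by log2 1. Of 128 calls, 5 were false. These rates describe the simulated data, and no rate was obtained for dim probe sets. They need not carry over to dim genes such as Hspb3 and Dnajb7, or to arrays whose median signal differs with handling.

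The genes described are 16 well known chaperones, up to 12 members called for handling by p-value, the 5 largest called rises and falls between extraction methods, the largest handling change of each family, and the 6 other pathway genes with the smallest handling p. Further genes named within a count were chosen after their values were seen. The members and lists were chosen with earlier results of these data known. Alternatives were quantile normalization, a common mean and variance of the arrays, 32 added to each signal, the upper 50% by signal, the mean over probe sets, probe sets of unique name, array weights, no trend, RNA quality covariates, no extraction term, each method alone, and each mouse left out.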

Additional observations from a re-analysis of the deposited data

Results flagged for a closer look

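Within the 4 groups of mice, 140 sets of values (35 genes) were searched for a mouse that stands apart, by the gap to its nearest neighbour as a share of the group's range, and 8 passed Dixon's limit. Chance flags about 1 in 20 groups. The non-handled column mouse NH162, whose array had the highest 3′ to 5′ ratio of Actb, was low for Dnaja2 (5908 signal, the next mouse 8432, gap 0.623 of the range) and for Dnaja1 (10945 signal, the next 15411, gap 0.474). The non-handled Trizol mouse NH144 was low for Hspa1b (244 signal, the next 736, gap 0.932) and high for Dnajc1 (506 signal, the next 393, gap 0.870). NH138 was low for Hspe1 (1463 signal, the next 2178, gap 0.892), and NH147 was low for Cct6b (7.53 signal, the next 48.8, gap 0.857). Among handled mice, H113 was low for Hspa8 with Trizol (31958.5 signal, the next 35456, gap 0.912), and H118 was low for Hspa5 with columns (7668 signal, the next 9753, gap 0.639).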

How the results depend on the processing

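The count of members higher in handled mice, 6, came to 0 in Trizol mice only and 3 with no trend in the prior. It came to 2 with a common mean and variance of the arrays and 2 without the extraction term. The share of all genes called higher, 4.47%, came to 0%, 2.5%, 3.64% and 1.08% in these settings. The count lower, 6, came to 0 in Trizol mice only, where 0% of all genes were called. With RNA quality covariates 5 members, not 10, were lower with columns, and the share of all genes lower was 10.8%, not 17.5%. Leaving out each mouse in turn gave 3 to 8 higher and 5 to 8 lower in handled mice, 25 to 28 higher and 8 to 11 lower with columns, 0 to 0 members whose handling effect differed by extraction, and medians of log2 -0.01 to 0.02 for handling and 0.10 to 0.17 for extraction. The 3 rises came without H109 and without H110, where 2.66% and 3.07% of all genes rose. With each mouse left out, the share of all genes higher in handled mice ran from 2.66% to 5.34%. The share lower ran from 6.99% to 10.8%. The median extraction change, 0.14, was 0.23 after quantile normalization and 0.31 with the same mean and variance. The correlation of Hspd1 and Hspe1 in column mice was -0.55 without NH162 (permutation adjusted p = 0.228), a setting chosen after seeing the data.

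Some directions turned. For handling, the mean over all probe sets of a gene gave -0.17 for Cct8 and -0.0033 for Dnaja2, the probe set of unique name gave -0.26 for Dnaja2, and the same mean and variance gave -0.0021 for Cct6a. For extraction, the mean over probe sets gave 0.22 for Hsp90b1 and -0.72 for Dnaja2, quantile normalization gave -0.26 for Hsph1 and -0.20 for Dnaja2, and the probe set of unique name gave -0.26 for Dnaja2 and 0.0086 for Hspa12a. The mean over probe sets gave -0.42 for the handling change of Dnajc13. Averaging adds probe sets dimmer than the leading one, and the cause of these turns was not tested. Quantile normalization called 533 genes higher and 923 lower in handled mice, against 814 and 1764. With columns it called 34 of the 80 members higher and 15 lower, beside 31.6% and 14% of all genes. Without it those shares of all genes were 23.7% and 17.5%. It moved the median handling change of all genes to log2 -0.01. The mean over probe sets also ended the handling calls of Hspa4 (0.41, limma adjusted p = 0.0616), Dnajc8, Hsp90b1, Dnajc17, Dnajc24, St13, Tomm70a and Ern1, and the extraction calls of Cct8 (-0.42, adjusted p = 0.435), Dnajc17 (0.56, adjusted p = 0.0778) and Hspa12a (-0.20, adjusted p = 0.485). No paired analysis was possible because the mouse numbers name individuals and no number is shared between groups. Litter was unknown, and small changes of dim genes were within the spread between mice.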
